A study of Mus musculus with 8 samples.

Results

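The genes described here encode subunits of the mitochondrial respiratory chain and of ATP synthase, read in the proximal large intestine of 8 gnotobiotic mice. Members were chosen by symbol from the deposited expression table: rows whose names start as those of complex I, complex II, complex III, complex IV or ATP synthase subunits do, with Cyc1 and Cycs, at a mean normalized value of at least 10 over the 8 libraries. The symbol rule matched 85 rows, and 81 of the 17041 genes in the table passed the mean. Complex I had 35 members, complex II 4, complex III 9, complex IV 14 and ATP synthase 15, and cytochrome c (Cycs) stood alone. Ndufa4, named as a complex I gene, is placed with complex IV, where its protein is now known to sit. The rule also took 3 genes that encode no subunit. Cox4nb is a neighbour of Cox4i1 whose product belongs to the endoplasmic reticulum membrane complex. With it came Atp5s and Atp5sl (current symbol Dmac2), named after ATP synthase but outside that enzyme. The 4 rows left out for a low mean were Ndufa4l2, Cox4i2, Cox6a2 and Cox8b, which are given with their isoforms.

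All 8 mice were ApoE knockout animals, 26 weeks old, raised germ-free and colonized by gavage at 8 weeks. The group called core (3 mice) carried a core bacterial community that produces no butyrate, and the group called core plus R. intestinalis, shortened to core+Ri (5 mice), carried the same community plus Roseburia intestinalis, a butyrate-producing bacterium. There was 1 library per mouse. The labels do not say whether mice of a group shared an isolator, so a p-value here reflects only how these animals varied.

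The respiratory chain passes electrons from NADH (complex I) and succinate (complex II) through ubiquinone to complex III, then by cytochrome c to complex IV, which reduces oxygen. Complexes I, III and IV pump protons across the inner mitochondrial membrane, and ATP synthase uses the returning protons to make ATP. Colonocytes oxidize butyrate from gut bacteria as a main fuel, and the electrons from that oxidation enter this chain. The design contrasts colonization with and without a butyrate producer.

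Estimated depth ran from 4607182 reads (core replicate 1) to 15349883 reads (core+Ri replicate 3). All 10 epithelial markers sought (such as Epcam and Krt20) were in the table, with summed values between 108168 and 138477 per library. So were all 6 surface colonocyte markers, with sums of 111557 to 188264, but single surface markers moved in opposite ways. In core+Ri replicate 2 Car1 was highest (109366), while Aqp8 (47.4), Slc26a3 (2591), Car4 (5080) and Saa1 (6164) were lowest. In other libraries Car1 fell to 12235, and Aqp8 rose to 2866, Slc26a3 to 18589, Car4 to 14999 and Saa1 to 18580. Ceacam1 ran from 55887 to 73920. In whole tissue, fewer cells of a type and less RNA per cell cannot be told apart. The summed values of smooth muscle markers (8 of 8 in the table) were 145677 to 197894 in core and 95800 to 167568 in core+Ri libraries. Fibroblast markers (8 of 8) summed to 9381 to 10857 and 5342 to 8564. Their part in the subunit results was not tested.

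The 26 names sought for mitochondrially encoded subunits matched no row, so the subunits made inside the organelle are not analysed here and every member is a nuclear gene. Nuclear subunit genes often carry sites for factors such as NRF1, GABPA, YY1 and the estrogen-related receptors at their starts. Promoters (250 bases before to 50 after the start; RefSeq, GRCm38.p6) were matched for 68 of the 81 members. The NRF1 letters, which read the same on both strands and stand in capitals in the promoters printed here, occurred in 5 of them (7.4%), against 2.26% of 10231 tested genes and 1.07% of all 27025 genes with such a window. The YY1 letters AAGATGGCG, on either strand, occurred in 8 (11.8%, against 3.43% of tested genes). The GABPA letters CCGGAAGTG occurred in 2 (2.9%, against 4.65%) and the receptor letters TCAAGGTCA in 2 (2.9%, against 0.28%). No searched motif contains another, and a match is a description of the letters only.

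Of the 5 members with the NRF1 letters, 3 promoters from different complexes are shown. Those of Cox6a1 (complex IV) and Atp5k (ATP synthase) are not printed. Uqcrc1 of complex III varied most of all members around the rest, Ndufa11 is an accessory subunit of complex I, and Atp5g2 is one of the genes for the rotating c-subunit of ATP synthase. Each is read 5′ to 3′ in the gene's direction, with the NRF1 letters in capitals. They start 31 bases into the transcript of Uqcrc1, 60 bases before the start of Ndufa11 and 42 bases before that of Atp5g2.
Uqcrc1, chr9:108936398-108936697 (plus strand): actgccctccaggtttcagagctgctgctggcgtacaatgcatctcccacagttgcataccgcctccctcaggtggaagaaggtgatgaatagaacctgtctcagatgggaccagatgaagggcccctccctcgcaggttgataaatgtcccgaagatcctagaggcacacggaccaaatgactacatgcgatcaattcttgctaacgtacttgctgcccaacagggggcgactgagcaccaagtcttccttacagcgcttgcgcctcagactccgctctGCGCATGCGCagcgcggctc
Ndufa11, chr17:56717512-56717811 (plus strand): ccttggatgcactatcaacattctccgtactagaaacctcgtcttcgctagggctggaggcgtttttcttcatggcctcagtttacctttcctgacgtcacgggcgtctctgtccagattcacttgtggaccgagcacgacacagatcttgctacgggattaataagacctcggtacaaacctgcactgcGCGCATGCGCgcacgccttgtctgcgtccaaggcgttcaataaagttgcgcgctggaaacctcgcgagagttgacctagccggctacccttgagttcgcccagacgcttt
Atp5g2, chr15:102670998-102671297 (minus strand): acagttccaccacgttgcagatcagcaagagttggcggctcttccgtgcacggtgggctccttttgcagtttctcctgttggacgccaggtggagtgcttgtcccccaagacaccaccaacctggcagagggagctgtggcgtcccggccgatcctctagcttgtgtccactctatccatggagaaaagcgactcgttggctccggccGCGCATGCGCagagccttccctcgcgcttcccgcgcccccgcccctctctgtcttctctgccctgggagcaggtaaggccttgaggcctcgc

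No member differed between the communities past the threshold, and the subunit genes were steadier between libraries than most genes. Levels are the normalized values as deposited, and differences are core+Ri minus core on the log2(value + 1) scale, from limma fitted over all 13020 genes with a mean of at least 10. With limma, 0 of 81 members had a Benjamini-Hochberg adjusted p below 0.05 (smallest 0.588), where 0 of all genes did (0.0%). At an unadjusted p below 0.05 the count was 0 of 81 members, against 8.13% of all genes tested (4.44% higher and 3.69% lower). The ranges of the groups overlapped in all 81 members, against 5.84% of all genes with groups apart (2.53% higher and 3.31% lower). The authors' deposited table called 0 members at a posterior probability of differential expression of at least 0.95 (0.481% of 17041 genes) and 0 at 0.90 (0.616%), and the highest value among members was 0.06, that of Ndufb4. The 95% interval of the difference lay within a 2-fold change either way for 79 members and within 1.5-fold for 72; Uqcrc1 and Cox6b2 had the wider intervals. The SD of log2 values over the 8 libraries had a median of 0.17 among members, 0.316 among all genes tested and 0.231 among the 2705 genes with a mean of at least 500, a level that 69 members reached.

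The differences leaned to one side. The log2 difference was below 0 in 63 of 81 members (77.8%), against 50.4% of all genes tested, and the median log2 difference was −0.12 over members and −0.00 over all genes. By complex the median was −0.13 in complex I (29 of 35 below 0), −0.12 in complex II (4 of 4), −0.08 in complex III (6 of 9), −0.11 in complex IV (11 of 14) and −0.12 in ATP synthase (11 of 15). On the log2(value + 1) scale the difference reached 1.5-fold in 1 member, Uqcrc1. The ratio of the group means without the added 1 was also past 1.5-fold in Cox6b2, at 14.0 in core and 9.19 in core+Ri libraries. This gene passed the mean of 10 only through core, so its ratio is tied to that filter.

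**Figure D1:**
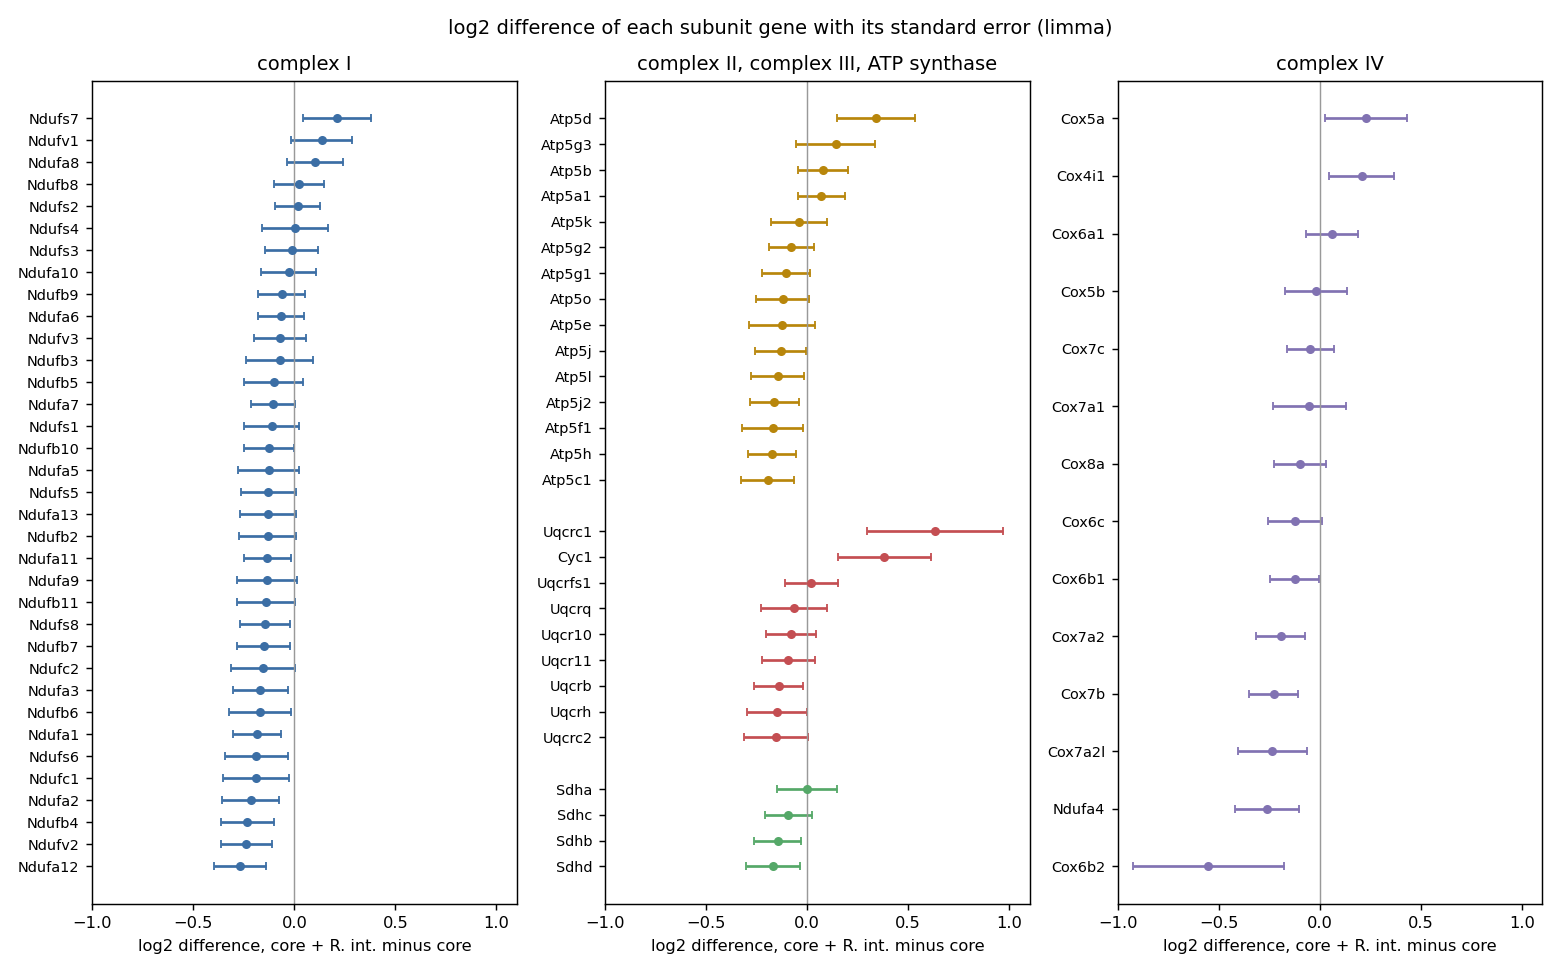
Log2 difference (x axis, core+Ri minus core) of the subunit genes of the 5 complexes, with the standard error from limma as bars. Most points lie left of 0, between −0.27 and 0.21 in complex I, while Uqcrc1 (0.63) and Cyc1 (0.38) of complex III lie furthest right and Cox6b2 (−0.55) of complex IV furthest left. Cox6b2 passed the mean of 10 only through the core libraries.

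The complexes shared a pattern of libraries that crossed the groups. Taking each member's log2 deviation from its mean over 8 libraries, the median over the 81 members was 0.12, −0.09 and 0.17 in core replicates 1 to 3. It was −0.09, −0.07, −0.05, 0.11 and −0.12 in core+Ri replicates 1 to 5. Thus core replicates 1 and 3 and core+Ri replicate 4 were high, and core replicate 2 sat among the other core+Ri libraries. These 3 libraries held the 3 highest values in 38 members (46.9%), against 6.4% of all genes tested. Core replicate 2 was the lowest core library in 63 members (77.8%), against 36.7% of all genes tested. These libraries were picked from the median of the same 81 members. Both shares among members are therefore partly built in, and the comparison with all genes is a description, not a test.

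The same 3 libraries had the highest medians in each complex. In complex I the medians were 0.11, −0.09 and 0.18 in core, and −0.11, 0.00, −0.07, 0.11 and −0.15 in core+Ri libraries. In ATP synthase they were 0.13, −0.08 and 0.17, and −0.04, −0.09, −0.04, 0.08 and −0.14. In complex IV they were 0.14, −0.05 and 0.14, and −0.12, −0.15, −0.06, 0.12 and −0.08. In all 3, core+Ri replicate 4 lay above core replicate 2, so the groups overlapped. Around the shared median, the SD of a member over libraries was at most 0.15 on the log2 scale for 54 of 81 members and above 0.25 for 10.

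**Figure D2:**
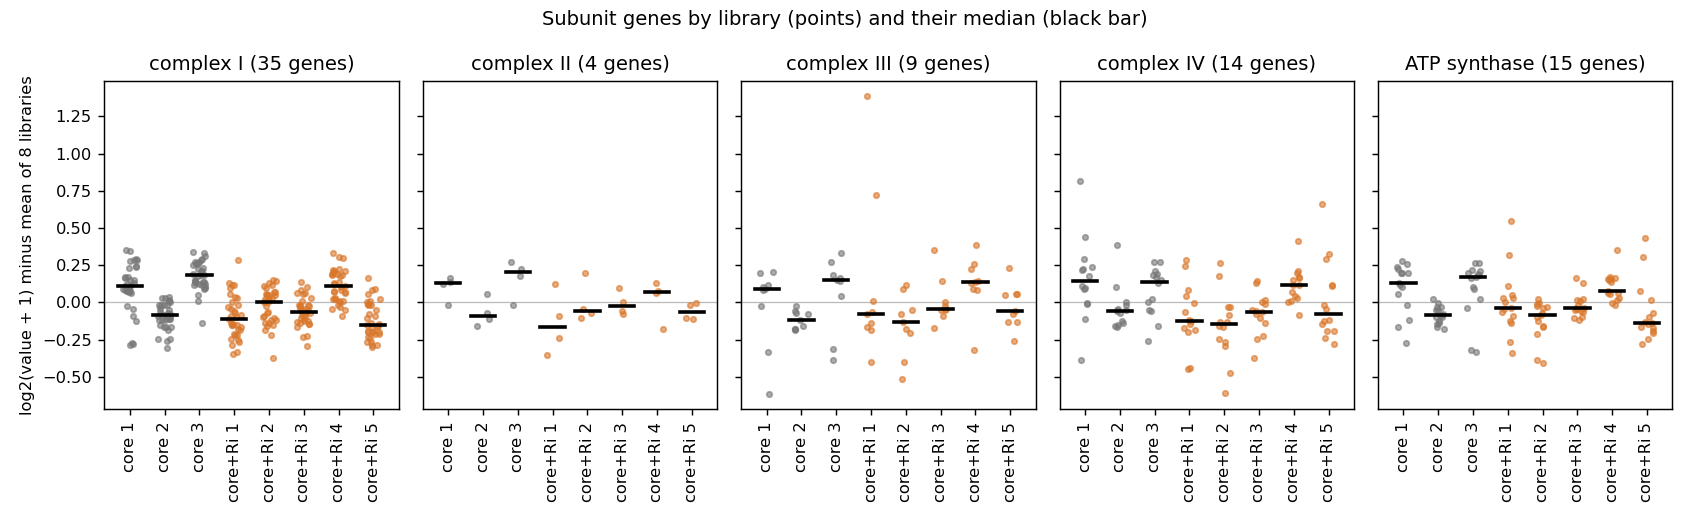
Deviation of log2(value + 1) from the mean of 8 libraries (y axis) for each subunit gene (points) and its median (black bars), by library (x axis) and complex, core in grey and core+Ri in orange. In the panels of complex I, complex II, complex III and ATP synthase, core 3 has the highest median (0.18 in complex I, 0.17 in ATP synthase), and core+Ri 4 lies above core 2 in all 5 panels.

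Leaving out single libraries moved these counts. Without core replicate 2 the groups were apart in 29 members (28 lower, 1 higher), against 19.8% of all genes, and the median difference was −0.20. In that fit 6 members (7.41%) had an unadjusted p below 0.05, against 9.61% of all genes. Without core replicate 3 the median was −0.06, and without core replicate 1 it was −0.08. With any 1 library left out, 0 members passed the adjusted threshold in limma.

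Subunit transcripts are short, with a median length of 745 bases against 2862.5 for all genes tested, and other short transcripts followed the same libraries. Among non-member genes with transcripts of over 500 and up to 750 bases (291 genes), the median deviation was 0.15, −0.04 and 0.18 in core, and −0.12, −0.01, −0.09, 0.13 and −0.16 in core+Ri libraries. Their median group difference was −0.16, and that of the 3778 genes with transcripts over 4000 bases was 0.01. The 3 libraries that were high for members held the 3 highest values in 21.4% of the 810 other genes with transcripts up to 1000 bases. After each library's deviations were corrected for transcript length, the median difference of members was 0.02, with 36 of 81 below 0, and the 8 library medians lay between −0.07 and 0.03. That correction was chosen after seeing the data, and the part of length in the lean was not tested. With GC and length corrected together the median was 0.021 (36 of 81 below 0), and with GC alone it was −0.141 (65 below 0). It was −0.141 (65 below 0) with a trimmed mean, −0.109 (61) with quantile normalization and −0.157 (63) with library weights.

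Adipocyte markers (8 of 8 in the table, none at 0 in every library) had their highest sums in the same 3 libraries, at 3227, 2000 and 1953 against 479 to 1490 in the others. So did proliferation markers (7 of 7), at 4497, 4856 and 4216 against 3252 to 3810. No other marker list had its 3 highest sums in these libraries. Of the adipocyte markers, Adipoq, Fabp4, Lep, Cidec and Retn had their 3 highest values there, and Cfd, Plin1 and Plin4 did not. Plin4 was highest in core replicate 2 (258) and core+Ri replicate 1 (256). The part of either list in the pattern was not tested.

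**Figure D3:**
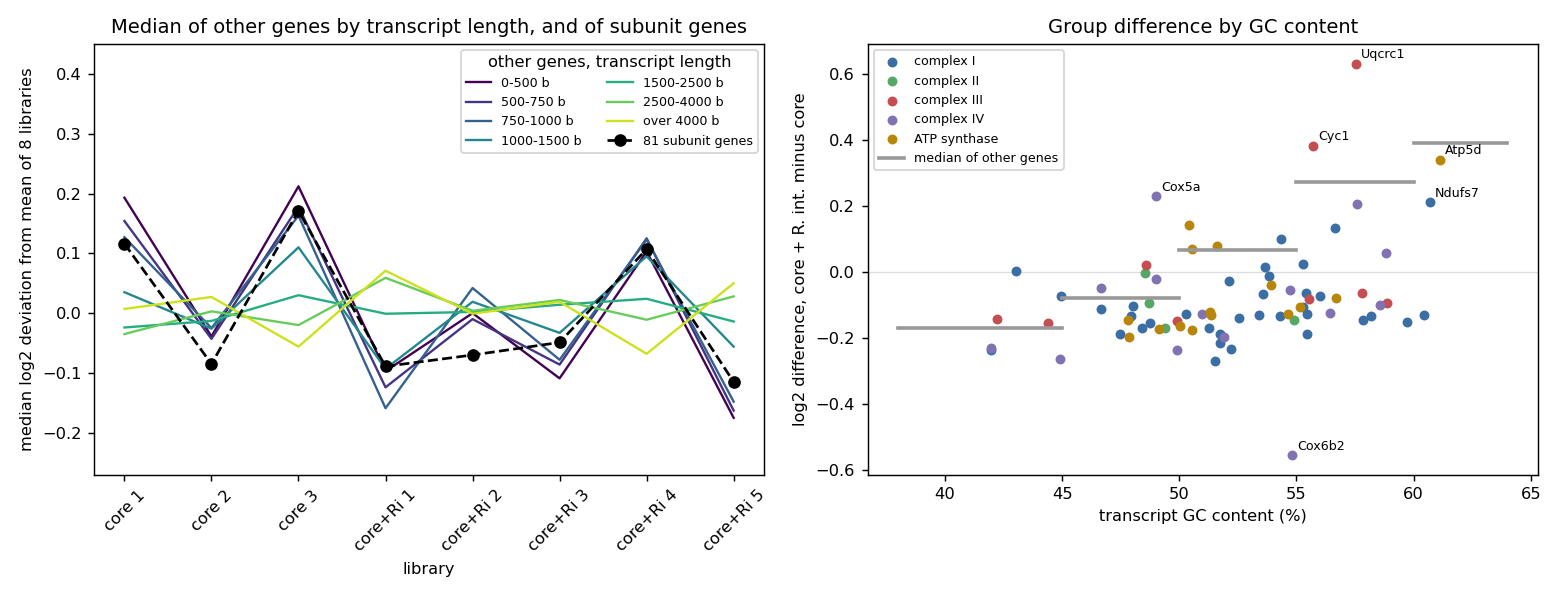
Left, median log2 deviation per library (x axis) of other genes by transcript length (coloured lines) and of the 81 subunit genes (black dashes). The dashes lie near the lines of transcripts up to 1000 bases in some libraries. They lie lower than those lines at core 2 (−0.09) and core+Ri 2 (−0.07). At core+Ri 3 (−0.05) and core+Ri 5 (−0.12) they lie higher. Right, log2 difference of the subunit genes of the 5 complexes (points) against transcript GC content, with the median of other genes in 5 GC ranges (grey bars, from −0.17 up to 45% to 0.39 over 60%).

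Group differences moved with GC content. Among non-member genes the median group difference was −0.17 at a GC content up to 45% and 0.39 above 60%. Over the 81 members, GC content and the log2 difference had a Pearson r of 0.33 across genes, which share the same 8 libraries and are not independent replicates; over all 12850 tested genes with a value it was 0.46. Of the 3 members above 60% GC, 2 (Atp5d and Ndufs7) had a higher mean with R. intestinalis. After a correction for GC content, chosen after seeing the data, Atp5d went from 0.34 to −0.04 and Ndufs7 from 0.21 to −0.16, while Uqcrc1 went from 0.63 to 0.36 and kept its direction. Cox5a, at 49.0% GC, went from 0.23 to 0.27, and Atp5g3, at 50.4%, was 0.14 before and after. With GC and length corrected together, all of these lay above 0. Atp5d was then 0.13, Ndufs7 0.031, Uqcrc1 0.39, Cox5a 0.50 and Atp5g3 0.36.

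Complex I takes electrons from NADH. Its member with the lowest difference was Ndufa12, an accessory subunit, with 2787, 2247 and 2661 in core and 2030, 2454, 2159, 2131 and 1866 in core+Ri libraries. Core replicate 2 lay within the other group, so the groups overlapped (log2 difference −0.27, SE 0.129, limma adjusted p = 0.588). Ndufv2, an iron-sulfur subunit of the NADH-binding module, had 1497, 1185 and 1424 in core and 1054, 1272, 1188, 1205 and 1071 in core+Ri libraries. Again only core replicate 2 reached into the other group (−0.24, limma adjusted p = 0.591). Ndufb4, a membrane-arm subunit, was noted after its values were seen: 705, 673 and 836 in core, 552 to 676 in core+Ri libraries.

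Ndufs7, which carries the last iron-sulfur cluster before ubiquinone, had the highest difference in complex I. Its values were 395, 492 and 437 in core and 587, 371, 519, 561 and 541 in core+Ri libraries. Of these, 4 of 5 lay above every core value, and replicate 2 lay below them all (0.21, SE 0.168, limma adjusted p = 0.651). Ndufv1, which binds NADH and flavin, had 894, 1007 and 1180 in core and 950 to 1363 in core+Ri libraries (0.13). Ndufs4, an accessory subunit, averaged 412 ± 79.1 (SD, n = 3) and 411 ± 54.8 (n = 5), with a 95% interval of the log2 difference from −0.36 to 0.36. Ndufa11, shown above for its promoter, averaged 644 ± 20.1 and 588 ± 39.6 (−0.13).

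Complex II, succinate dehydrogenase, belongs both to the respiratory chain and to the citric acid cycle. Sdhb, its iron-sulfur subunit, had 2400, 2099 and 2575 in core and 2066, 2095, 2094, 2324 and 2047 in core+Ri libraries. Of the 5, 4 lay between 2047 and 2095 and replicate 4 stood above them (−0.15, SE 0.115, limma adjusted p = 0.646). Sdhd, a membrane anchor, averaged 1877 ± 249 and 1664 ± 155 (−0.17), and Sdhc, the other anchor, 992 ± 53.8 and 931 ± 75.2 (−0.09). Sdha, the flavoprotein that oxidizes succinate, averaged 3716 ± 445 and 3725 ± 510, with a 95% interval of the log2 difference from −0.33 to 0.33.

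Complex III passes electrons from ubiquinol to cytochrome c. Uqcrc1, a core protein without a redox group, had 474, 643 and 554 in core and 1903, 642, 927, 583 and 698 in core+Ri libraries. Replicate 1 stood far above all others, and 2 of its group, replicates 2 and 4, lay within the core range (0.63, SE 0.336, limma adjusted p = 0.591; 95% interval −0.11 to 1.37). Without that library the log2 difference was 0.34. The high value rests on an estimated 2850 reads, against 298.5 to 2029 in the other libraries.

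Cyc1, the cytochrome c1 subunit that hands electrons to cytochrome c, had 494, 593 and 499 in core and 1026, 436, 687, 681 and 730 in core+Ri libraries. Replicate 1 was highest and replicate 2 the lowest of all 8 (0.38, SE 0.229, limma adjusted p = 0.606). Uqcrc2, the partner core protein of Uqcrc1, went the other way, with 3714, 3069 and 4303 in core and 2594, 3651, 3428, 3788 and 3128 in core+Ri libraries. Here replicate 1 was the lowest of all (−0.15). The GC content of Uqcrc1 is 57.5% and that of Uqcrc2 44.4%. Uqcrh, the hinge protein, averaged 5306 ± 860 and 4766 ± 541 (−0.15), and Uqcrb, a small subunit, 5015 ± 608 and 4529 ± 282 (−0.14). Cycs, cytochrome c itself, averaged 4127 ± 577 and 3771 ± 504 (−0.13), with core replicate 2 at 3466 below the other core libraries at 4387 and 4528.

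**Figure D4:**
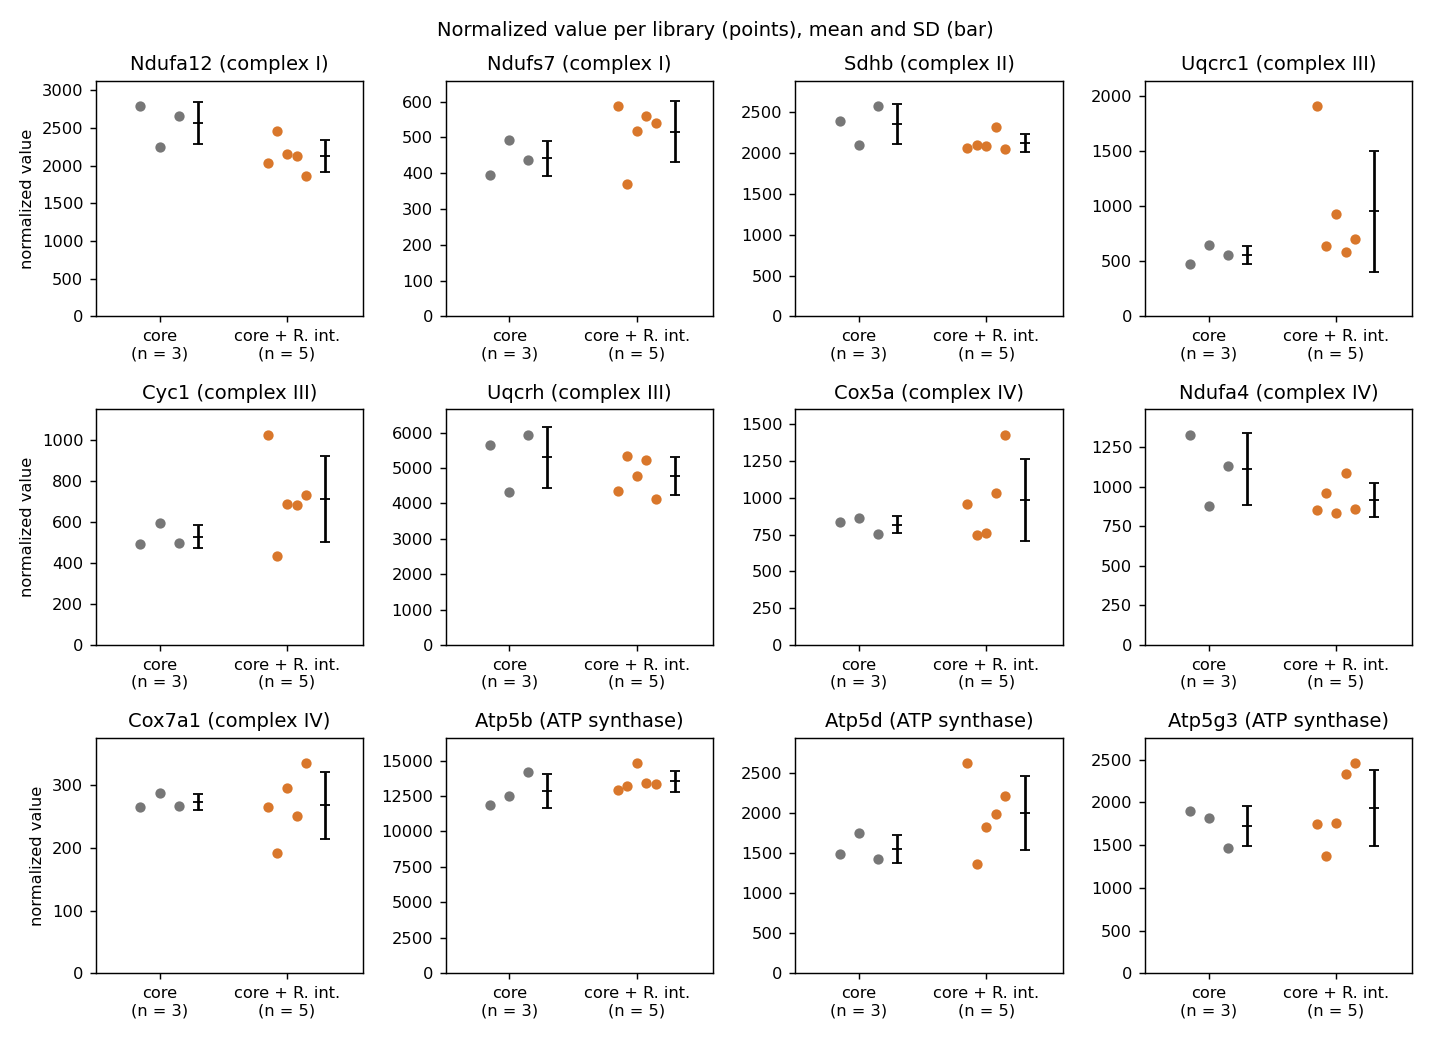
Normalized value per library (y axis from 0) of 12 members in core (grey, n = 3) and core+Ri (orange, n = 5), 1 point a mouse, beside the mean and SD as a bar. The groups overlap in every panel, and Uqcrc1 has a single high library at 1903.

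Complex IV, cytochrome c oxidase, reduces oxygen. Cox5a, a matrix-side subunit, had the highest difference there, with 835, 865 and 752 in core and 955, 749, 759, 1035 and 1428 in core+Ri libraries. The values of replicates 2 and 3 lay at or near the lowest core value, and replicate 5 was highest (0.23, SE 0.203, limma adjusted p = 0.675). Without replicate 5 the log2 difference of Cox5a was 0.085, below the 0.29 of Cox4i1 in the same fit. Cox5b, its companion on the matrix side, noted after its values were seen, was also highest in replicate 5, at 4203, followed by replicate 4 at 3980. The other 6 libraries ran from 2808 to 3664 and the group means were 3470 ± 179 and 3457 ± 601. Ndufa4 had 1329, 876 and 1131 in core and 851, 959, 835, 1085 and 856 in core+Ri libraries (−0.26, limma adjusted p = 0.606). Its 3 highest libraries were core replicates 1 and 3 and core+Ri replicate 4.

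Several complex IV subunits have isoforms with tissue preferences, and per kilobase of transcript the general form had the higher level in each pair. The mean level per kilobase was 3218 for Cox4i1 and 11.4 for Cox4i2, 3871 for Cox6b1 and 19.9 for Cox6b2, and 9428 for Cox8a and 17.6 for Cox8b. The shares that follow compare the groups, not the isoforms, and take no account of length. Cox4i1, the general form, had 1808, 2110 and 2668 in core and 2890, 2679, 2600, 2423 and 2003 in core+Ri libraries (0.21, limma adjusted p = 0.647). Cox4i2, a form of lung and vascular cells induced by low oxygen, had 7.94, 15.97 and 10.33 in core and 7.34, 6.47, 5.94, 5.90 and 6.39 in core+Ri libraries. Every core value lay above the other group, on an estimated 5 to 15 reads per library. Its share of the summed Cox4 value was 0.437%, 0.751% and 0.386% in core and 0.228% to 0.318% in core+Ri libraries (two-sided exact permutation p = 0.0179, which is as low as 56 splits can go, and 0.125 after adjustment over the 7 shares tested). It therefore did not pass. Endothelial and pericyte markers (8 of 8 in the table) summed to 2894 to 3412 in core and 1722 to 2979 in core+Ri libraries, and their part was not tested.

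Cox7a1, the heart and muscle form, had 265, 287 and 267 in core and 266, 192, 295, 251 and 335 in core+Ri libraries (−0.05, limma adjusted p = 0.914). Its share of the summed Cox7a1 and Cox7a2 value was 12.3% ± 1.65 (SD, n = 3) in core and 13.6% ± 2.89 (n = 5) in core+Ri libraries (two-sided exact permutation p = 0.589). Per kilobase of transcript, Cox7a1 stood at 687 and Cox7a2, the general form, at 2736. Cox7a2 averaged 1959 ± 199 and 1709 ± 140 (−0.20). Cox7a2l, a relative that joins complexes III and IV into supercomplexes, averaged 3600 ± 456 and 3085 ± 587 (−0.24), with the lowest value, 2376, in core+Ri replicate 1.

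Cox6b2, the testis form, had 19.05, 13.84 and 9.18 in core and 7.34, 6.47, 7.77, 14.16 and 10.23 in core+Ri libraries. It had the lowest difference of any member, near the lower limit of the test (−0.55, SE 0.374, limma adjusted p = 0.615), and 6 to 17 estimated reads per library. With group means of 14.0 in core and 9.19 in core+Ri libraries, Cox6b2 passed the mean of 10 only through core. Its low difference is therefore tied to that filter. Cox6b1, the general form, averaged 2531 ± 309 and 2310 ± 147. Cox8b, a heart and muscle form, lay between 4.59 and 14.29 in core, and between 2.56 and 9.70 in core+Ri libraries, beside Cox8a, the general form, at 5399 ± 385 and 5057 ± 588. Cox6a2, the muscle partner of Cox6a1, was listed at 0 in 6 of 8 libraries and stood at 1 estimated read in each of the other 2. Cox6a1 averaged 2955 ± 63.0 and 3097 ± 382. Ndufa4l2, a low-oxygen-induced relative of Ndufa4, ran from 0 to 5.74 in all 8 libraries.

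ATP synthase has a catalytic head, a stalk and a rotating ring in the membrane. Atp5b, the catalytic beta subunit, and Atp5a1, its alpha partner, form its alternating head. Atp5b had 11836, 12499 and 14204 in core and 12890, 13213, 14812, 13387 and 13373 in core+Ri libraries (0.08, 95% interval −0.19 to 0.35). Atp5a1 averaged 8329 ± 671 and 8737 ± 496 (0.07). Both were noted after their values were seen. Atp5c1, the central stalk's gamma subunit, averaged 5198 ± 524 and 4540 ± 465 (−0.20, limma adjusted p = 0.614), and Atp5h, a subunit of the outer stalk, 2884 ± 273 and 2552 ± 197 (−0.18). Atp5d, the delta subunit of the central stalk, had 1484, 1756 and 1424 in core and 2624, 1370, 1824, 1993 and 2216 in core+Ri libraries. Of these 5, 4 lay above every core value and replicate 2 below them all (0.34, SE 0.193, limma adjusted p = 0.598), the same order of groups as in Ndufs7.

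The c-subunit of the membrane ring is made by 3 genes whose mature proteins are the same and whose import sequences differ. Atp5g3 had 1899, 1816 and 1464 in core and 1744, 1377, 1760, 2330 and 2458 in core+Ri libraries (0.14, limma adjusted p = 0.778). It made up 31.4% to 40.3% of the summed value of the 3 genes in core and 33.9% to 48.9% in core+Ri libraries (two-sided exact permutation p = 0.429). Atp5g1 and Atp5g2 had shares of 31.6% ± 2.40 and 31.4% ± 3.02 in core, and 29.4% ± 3.40 and 29.7% ± 2.83 in core+Ri libraries. The 3 shares thus overlapped between groups, and over the 7 isoform shares tested the smallest adjusted p was 0.125. Near-identical processed pseudogenes are annotated for 6 members (Atp5g2, Atp5h, Atp5l, Ndufs3, Ndufs6 and Uqcrb), so reads of these genes may be split with other copies and their values are uncertain.

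**Figure D5:**
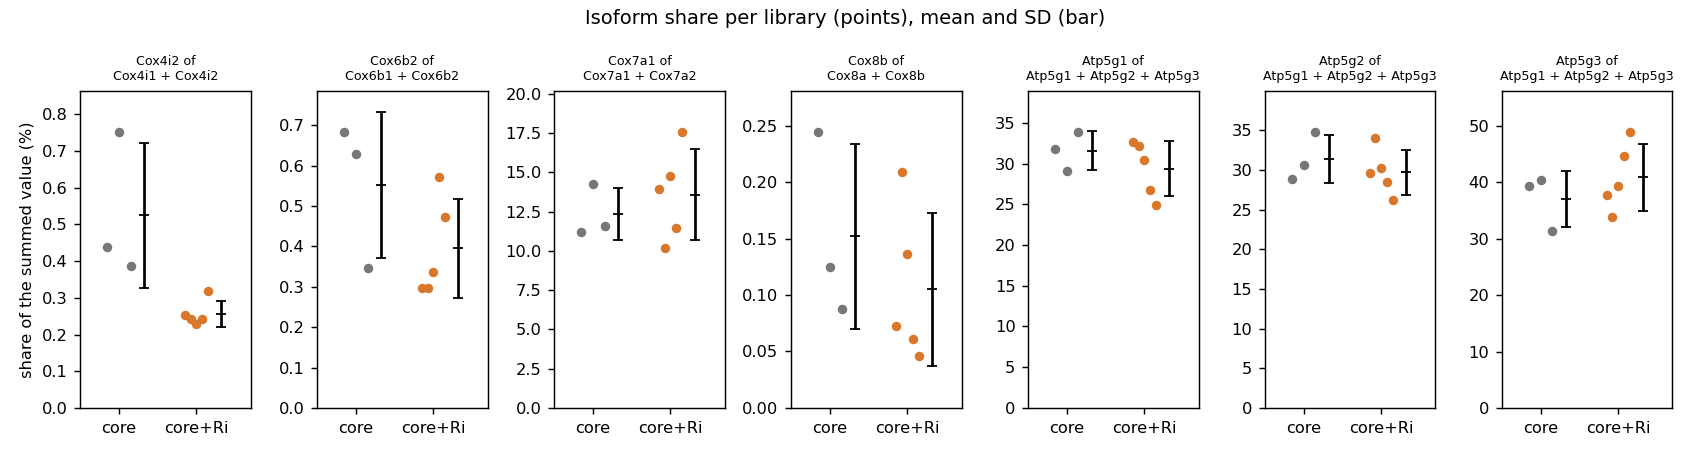
Share of each isoform in the summed normalized value of its set (y axis, percent, from 0) for each mouse (points: core grey, core+Ri orange), beside the mean and SD as a bar. The groups do not overlap for Cox4i2 (0.386% or more against 0.318% or less), and overlap in the other 6 panels.

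Per kilobase of transcript, levels were set side by side for the 74 members whose annotated principal transcripts differ in length by at most 1.5 times. The highest were Cox8a at 9428, Uqcrh at 9084, Uqcrb at 8806 and Atp5b at 6929. In the complexes, low levels were those of Cox6b2 at 19.9, Ndufs4 at 242, Sdhc at 301 and Cyc1 at 423. The genes of the rule that encode no subunit were lower than every subunit but Cox6b2, with Cox4nb at 34.5, Atp5s at 57.3 and Atp5sl at 179. Atp5sl had 283, 404 and 355 in core and 650, 447, 514, 335 and 435 in core+Ri libraries (0.44, limma adjusted p = 0.588). Cox4nb averaged 164 ± 9.33 and 174 ± 31.4, and Atp5s 94.9 ± 19.5 and 79.1 ± 11.2.

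The 13 lists of other pathway genes gave 0 genes past the adjusted threshold in limma. Among them, the list of mitochondrially encoded subunits matched no row, so nothing in it was tested. Mitochondrial ribosomal protein genes (76 tested) had a median difference of −0.13 with 58 below 0, against 50.4% of all genes tested. Their library medians were 0.11, −0.08 and 0.16 in core and −0.13, 0.04, −0.08, 0.14 and −0.17 in core+Ri libraries. The same 3 libraries were highest as for the subunits. At an unadjusted p below 0.05, 2 of the 76 were higher and 1 lower, against 8.13% of all genes in either direction.

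Assembly factors build the complexes and are not part of them. Of 10 tested for complex I, 8 had a log2 difference below 0 (median −0.27), against 50.4% of all genes. At an unadjusted p below 0.05 there were 0, against 8.13% of all genes, and a list this short cannot separate the 2. Ndufaf4 averaged 314 ± 51.1 and 245 ± 35.8, and Ndufaf3 104 ± 14.0 and 81.4 ± 8.85. Of 14 tested for complex IV, 1 was higher and 1 lower at an unadjusted p below 0.05 (8.13% of all genes in either direction). Cox10, which makes the heme A precursor, averaged 106 ± 18.1 and 170 ± 57.6, and Fam36a (also called Cox20) 514 ± 89.6 and 377 ± 54.6, both with a limma adjusted p of 0.588. The lists for complex II (3 tested, median −0.22), complex III (5, −0.10) and ATP synthase (4, −0.11) had 0 genes at an unadjusted p below 0.05. These lists are too short to set that count against the 8.13% of all genes. The smallest p in the complex II list belonged to Sdhaf2 (384 ± 26.6 and 331 ± 36.5) and Acn9 (log2 difference −0.44, SE 0.324). In the complex III list they were Lyrm7 (52.7 ± 8.46 and 47.3 ± 5.49) and Hccs (log2 difference −0.10, SE 0.146), the enzyme that attaches heme to cytochromes c. In the ATP synthase list they were Atpaf2 (133 ± 19.6 and 164 ± 19.3) and Tmem70 (245 ± 44.2 and 213 ± 27.5). Of 6 further subunits with names outside the symbol rule, 0 had an unadjusted p below 0.05 (median −0.02), again too few to set against 8.13%. Among them 2010107E04Rik averaged 647 ± 76.1 and 581 ± 26.6, and the log2 difference of Higd2a was 0.14 (SE 0.152).

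Regulators of mitochondrial biogenesis (12 tested) had a median of 0.01, with 6 on each side. Esrra, the estrogen-related receptor alpha, had 111, 210 and 76.9 in core and 302, 91.7, 262, 297 and 345 in core+Ri libraries, so that replicate 2 lay in the core range (0.96, SE 0.438, limma adjusted p = 0.588). Its GC content is 61.8%. Tfb2m, a mitochondrial transcription factor, averaged 639 ± 104 and 529 ± 101.

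Of 7 genes tested that feed the chain beside complexes I and II, 2 were higher and 0 lower at an unadjusted p below 0.05. The share of all genes in either direction was 8.13%, and the median of the list was −0.03. Gpd2, the mitochondrial glycerol phosphate dehydrogenase, averaged 383 ± 50.8 and 483 ± 49.2 (0.33, limma adjusted p = 0.588). Prodh, proline dehydrogenase, averaged 96.9 ± 30.8 and 152 ± 42.7 (0.64, limma adjusted p = 0.588). In both the groups overlapped. In ubiquinone synthesis (12 tested) the groups were apart in 1 gene, against 5.84% of all genes. This was Coq4, at 57.1 to 73.5 in core and 79.2 to 133 in core+Ri libraries (0.53, limma adjusted p = 0.588), and Adck3 averaged 314 ± 67.7 and 388 ± 76.1.

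Among membrane carriers (14 tested) the groups were apart in 2 genes, against 5.84% of all genes. Slc25a4, the ADP/ATP carrier form of heart and muscle, had 1678, 1595 and 1577 in core and 1257, 1379, 941, 1516 and 818 in core+Ri libraries (−0.49, SE 0.198, limma adjusted p = 0.588). Its lowest values were in replicates 3 and 5, the libraries with the lowest sums of smooth muscle markers (96084 and 95800). Cox7a1, the muscle form of complex IV, was highest in these same libraries, and the part of muscle in either gene was not tested. Phb2, a prohibitin of the inner membrane, lay between 511 and 644 in core, and between 660 and 1386 in core+Ri libraries (0.59, limma adjusted p = 0.588). Ucp2, an inner-membrane carrier of the uncoupling protein family, had 717, 1030 and 712 in core and 5773, 1263, 1739, 985 and 1396 in core+Ri libraries. Replicate 1, which was also the library with the high Uqcrc1 value, stood far above the others (1.13, limma adjusted p = 0.588). Replicates 2, 3 and 5 also lay above every core value, and replicate 4 lay within the core range.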

How the data were processed

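RNA from the proximal large intestine of 8 mice was sequenced as stranded mRNA libraries, per the labels' protocols. Bowtie2, RSEM 1.2.23 and the mm9 build are listed in the submitters' processing notes, which give them no role. The deposited values are a normalized expression signal per gene and library. Low values of most genes cluster on 1 step per library whatever the gene (79.8% to 84.2% of values under 30 within 0.05 of a step), and the sum over that step gave the estimated depth. The deposited table also gives the authors' posterior probability of differential expression, a score, and their fold change, a linear ratio between the groups.

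Values were analysed as log2(value + 1) with limma 3.58.1 in R 4.3.3 (mean-variance trend, genes with a mean of at least 10, Benjamini-Hochberg adjustment at 0.05), tested on simulated data. Groups were called apart where library ranges did not overlap. Isoform shares were compared by two-sided exact permutation over 56 splits. Transcript length and GC content came from GENCODE M21 (GRCm38), from the principal transcript of median length; 98.7% of tested genes and all 81 members had values. Copies were sought with blastn (at least 95% identity over at least 60% of the transcript).

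Members and lists were chosen with earlier results of these data known. Genes named were, per complex, the 2 highest and 2 lowest differences, all isoform sets, Cyc1 and Cycs, any member with groups apart or an unadjusted p below 0.05, any member called by the authors and, from each pathway list of up to 15 genes, the 2 with the smallest p; Ndufb4, Ndufa11, Ndufs4, Uqcrb, Cox5b, Atp5a1, Atp5b, Atp5s, Atp5sl and Cox4nb were chosen after their values were seen. Alternatives were other pseudocounts, filters, normalizations, weights, no trend, a replicate block, each library left out, a posterior probability of at least 0.90, and, added after seeing the data, GC and length corrections (lowess). Symbols that matched no row are not analysed here.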

Additional observations from a re-analysis of the deposited data

Results flagged for a closer look

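In the 5 core plus R. intestinalis libraries, 52 sets of values (named members, isoform shares, and library medians of all members and of each complex) were examined for 1 library far from the others, and 4 had one. Chance gives about 1 in 20 for independent sets. These sets share the same 5 libraries and many genes, so that rate cannot judge the count. Uqcrc1 was 1903 in replicate 1, with the next library at 927. Sdhb was 2324 in replicate 4, above 4 libraries between 2047 and 2095. Atp5b was 14812 in replicate 3, above 4 libraries between 12890 and 13387. The share of Cox4i2 in the summed Cox4 value was 0.318% in replicate 5, the others lying between 0.228% and 0.253%.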

How the results depend on the processing

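Limma called 0 members under every alternative run, and 0 of all genes under most of them; it called 455 of 13020 genes with library weights and 1 without core replicate 1. The authors' table called 0 members at a posterior probability of at least 0.90. At an unadjusted p below 0.05 the count of 0 became 1 with quantile normalization (8.48% of all genes), with a GC correction (8.96%) and with GC and length correction together (9.27%). It was 21 with library weights, which favoured core+Ri replicate 3 (weight 7.98) and put 3829 of 13020 genes past that p. With 1 library left out it ran from 0 to 6: 6 without core replicate 2, 4 without core+Ri replicate 2 (14.6% of all genes) and 2 without core+Ri replicate 4 (9.65%). Groups were apart in 3 members after rescaling by a trimmed mean (6.01% of all genes), 10 after quantile normalization (6.34%), and 1 after a length correction (5.93%) or GC and length correction together (6.1%). With 1 library left out that count ran from 0 to 29: 29 without core replicate 2 (19.8% of all genes), 3 without core replicate 3 (13.5%), 2 without core+Ri replicate 1 (7.47%), 4 without core+Ri replicate 2 (1695 of 13020 genes) and 8 without core+Ri replicate 4 (10.2%). The median difference of members ran from −0.20 to −0.06 with 1 library left out.

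The log2 differences that changed sign with the length correction were the median of members 0.017, the median of complex III 0.091, the median of complex IV 0.044, the median of ATP synthase 0.029, Atp5g1 0.025, Atp5g2 0.11, Cox5b 0.080, Cox6b1 0.021, Cox7a1 0.14, Cox8a 0.062, Ndufa11 0.030, Ndufs4 −0.0092, Uqcrb 0.023 and Uqcrh 0.014. The log2 differences that changed sign with GC and length correction together were the median of members 0.021, the median of complex III 0.12, the median of complex IV 0.079, the median of ATP synthase 0.053, Atp5c1 0.012, Atp5h 0.057, Atp5s 0.050, Cox4nb −0.0020, Cox5b 0.21, Cox6a1 −0.040, Cox6b1 0.093, Cox7a1 0.065, Cycs 0.033, Ndufa4 0.14, Ndufv1 −0.063, Ndufv2 0.0049, Sdha 0.017, Uqcrb 0.30, Uqcrc2 0.023 and Uqcrh 0.12. The log2 differences that changed sign with the GC correction alone were Atp5d −0.037, Cox4i1 −0.068, Cox5b 0.018, Cox6a1 −0.26, Cycs 0.050, Ndufs7 −0.16, Ndufv1 −0.10, Sdha 0.050 and Uqcrb 0.024. The log2 differences that changed sign with library weights were Cox4nb −0.13, Cox7a1 0.085, Ndufs4 −0.10 and Sdha 0.066. The log2 differences that changed sign with quantile normalization were Cox5b 0.0028 and Sdha 0.0097. The log2 differences that changed sign with the trimmed mean were Ndufs4 −0.013. With 1 library left out, ranges crossed 0 for Cox4nb (−0.028 to 0.13), Cox5b (−0.096 to 0.049), Cox7a1 (−0.14 to 0.061), Ndufs4 (−0.13 to 0.15), Sdha (−0.083 to 0.088). The cause of these sign changes was not tested.

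Same-numbered libraries of the groups did not deviate together (correlations −0.115, −0.53 and −0.07; 0 of 3 core libraries correlated best with their own number), so the replicate numbers of the titles give no sign of pairing. The sample names number the core libraries 3 to 5; by those numbers the correlations were −0.011, −0.407 and −0.494, and no block was fitted on them. With the replicate number as a block, 2 members had an unadjusted p below 0.05 in limma, against 395 of 13020 genes. They were Uqcrc1 and Atp5sl, of which Atp5sl encodes no subunit. In that fit the sign changed in Atp5g3 −0.085, Cox5a −0.0010 and Ndufs4 −0.050.

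The isoform share differences kept their sign with 1 library left out. They ran from −0.338 to −0.155 percentage points for Cox4i2, −0.261 to −0.093 for Cox6b2 (−0.261 without core replicate 3, exact permutation p = 0.0476, two-sided and unadjusted, as low as 2 against 5 libraries can go), 0.259 to 2.20 for Cox7a1, −0.080 to −0.001 for Cox8b, −3.42 to −1.03 for Atp5g1, −2.95 to −0.015 for Atp5g2 and 1.05 to 5.62 for Atp5g3. Shares of Cox4i2 and Cox8b could not be computed under quantile normalization, since both genes fell under the mean of 10. At estimated depths of 4607182 to 15349883 reads, isoforms with fewer than 20 reads per library allow no fine comparison.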
